A study of Mus musculus with 4 samples.

Results

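Btg4 and 9 genes of the deadenylation machinery (Cnot1, Cnot2, Cnot3, Cnot6, Cnot6l, Cnot7, Cnot8, Zfp36l2 and Pan2) were followed from the mouse oocyte to the blastocyst and in mouse embryonic stem cells (mESCs). The genes were listed by symbol rather than by a measured value, though with earlier results of these data known. All 10 were found among the 20171 genes of the gene table. The study sequenced full-length cDNA of 161 single cells with the HIT-scISOseq method, in which oligo(dT)-primed cDNA carries a cell barcode and a unique molecular identifier (UMI) and is read on a PacBio sequencer. Levels below are copies, the UMIs of a gene per 100000 UMIs of a cell, averaged over the cells of an embryo.

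All embryos came from superovulated C57BL/6J females mated with DBA/2NCrl males (the strain label reads DBA/2J x C57BL/6J), and the females were 6 to 8 weeks old. The groups were 10 unmated MII oocytes taken 20 h after hCG, 9 zygotes (22 to 24 h), 5 early 2-cell embryos (E2C, 30 to 32 h), 6 late 2-cell embryos (L2C, 46 to 48 h), 5 4-cell embryos (54 to 56 h), 4 8-cell embryos (68 to 70 h) and 4 16-cell embryos (78 to 80 h). Each of these 43 oocytes or embryos was 1 replicate, and together they held 121 cells. Another 22 32-cell blastomeres, 13 blastocyst cells and 5 mESCs carry no embryo name, so their values are given over cells and enter no test. The mESCs were of the E14 Tg2A line. A separate run held 4 intact oocytes, 6 samples of 1/2 oocyte and 6 of 1/4 oocyte.

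Messenger RNAs made in the growing oocyte carry the embryo through its first cleavages and are then cleared. Shortening of the poly(A) tail is the first step of that clearance. The CCR4-NOT complex does most of it: CNOT1 is the scaffold, CNOT2 and CNOT3 form a module at its end, and the catalytic subunits are CNOT7 or CNOT8, of one nuclease family, and CNOT6 or CNOT6L, of another. BTG4 is an oocyte adaptor that brings CNOT7 or CNOT8 to maternal messages, ZFP36L2 is an RNA-binding adaptor for AU-rich messages, and PAN2 is the nuclease of a second deadenylase.

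Cells held between 4985 and 389775 UMIs, with a median of 38914. The depth was highest in oocytes, with at least 166731 UMIs in each, and zygotes, and lower in later cells, with a median of 58097 UMIs in L2C cells and 32466 in 4-cell cells, and 1 of the 6 L2C embryos was a single cell. Of the marker lists, the summed oocyte markers had a median of 1867 copies in oocytes and 73.2 in L2C embryos, and the pluripotency markers a median of 15.2 copies in oocytes and 1094 in mESCs. The summed trophectoderm markers reached 368 copies in a blastocyst cell and no more than 3.71 in an oocyte. Of the 10 cumulus and granulosa cell genes, 7 were in the table, and their sum stayed at or under 13.2 copies in oocytes. The late 2-cell markers went against the label: Zscan4c, Zscan4d and Zfp352 together had a median of 10.7 copies in E2C and 3.91 in L2C embryos. The run of E2C to 32-cell cells is not given in the sources used here, so run and stage cannot be told apart in the steps after the zygote.

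Btg4 lies on chromosome 9 at chr9:51060901-51119875 (plus strand, GRCm38, the mm10 build of the files), and its most abundant isoforms begin near the RefSeq start site that defines the promoter below, from 250 bases before the start site to 50 after it. The sequence is shown because Btg4 had the largest fitted fall of the 10 genes between E2C and L2C. Capitals mark the first 10 bases of isoforms, among the 5 most abundant of a gene, that start inside the window.

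Btg4 promoter, chr9:51115751-51116050, plus strand, GRCm38.p6 (RefSeq): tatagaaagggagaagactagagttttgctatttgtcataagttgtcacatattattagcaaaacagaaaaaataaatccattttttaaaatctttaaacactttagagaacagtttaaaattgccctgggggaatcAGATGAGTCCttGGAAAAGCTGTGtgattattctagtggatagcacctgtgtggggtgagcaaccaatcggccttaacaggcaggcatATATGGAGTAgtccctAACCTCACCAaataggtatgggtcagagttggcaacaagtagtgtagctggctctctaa
Cnot8 promoter, chr11:58103720-58104019, plus strand, GRCm38.p6 (RefSeq): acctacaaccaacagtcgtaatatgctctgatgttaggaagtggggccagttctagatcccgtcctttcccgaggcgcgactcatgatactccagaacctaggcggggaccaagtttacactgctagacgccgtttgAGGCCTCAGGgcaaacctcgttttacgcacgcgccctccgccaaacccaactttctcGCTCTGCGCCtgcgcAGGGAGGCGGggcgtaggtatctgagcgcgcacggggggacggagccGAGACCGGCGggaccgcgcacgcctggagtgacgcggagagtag

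The Cnot8 window stands beside it because Cnot8 was the only one of the 10 genes called higher at the step where Btg4 fell. The Btg4 isoforms started 113, 101, 99, 25 and 9 bases before the annotated site, and those of Cnot8 113, 56 and 41 bases before and 7 after it. The Btg4 window held 1 CpG and was 39% G or C, against medians of 7 CpG and 52.7% over all 32851 promoters of the same length. The Cnot8 window held 30 CpG and was 61.7% G or C. Searched on both strands, the Btg4 window held CCAAT once, at position -50, and the E-box letters CANNTG at -114 and -70, matches that did not overlap each other. It held neither TATAAA nor TAATTG, and the Cnot8 window held none of the 4 motifs. Of all promoters, 37.4% held CCAAT, 72.3% CANNTG, 13.6% TATAAA and 8.00% TAATTG. RefSeq promoters were matched for 7 of the 10 genes.

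By UMIs, Btg4 was the most abundant of the 10 messages in oocytes, zygotes and E2C embryos, and it fell steeply between E2C and L2C. It was at 764 copies ± 63.4 (SD, n = 10) in oocytes, where the lowest, median and highest values were 664, 768 and 866. In zygotes it was at 863 ± 102 (n = 9), with a lowest value of 741 and a highest of 1017. The 5 E2C embryos were at 657, 498, 583, 605 and 661 copies, all below every zygote and every oocyte. The fitted log2 difference from zygote to E2C, -0.51 (SE 0.33, limma adjusted p = 0.33), was not called. The 6 L2C embryos were at 83.5, 20.2, 35.5, 86.5, 28.7 and 35.0, so that the mean had dropped 12.5-fold and the groups lay far apart. On the log2(copies + 1) scale Btg4 fell by 4.04 (SE 0.45) from E2C to L2C (limma, Benjamini-Hochberg adjusted p = 1.9e-11 over 11682 genes), and 76 of those genes fell further.

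After that step Btg4 stayed low but uneven. The 4-cell embryos were at 123.1, 2.45, 40.9, 59.1 and 60.1 copies, the 8-cell embryos at 65.0, 4.79, 54.0 and 45.1, and the 16-cell embryos at 110, 10.1, 97.0 and 89.5. The embryo numbered 2 was the lowest at each of these stages. In 32-cell blastomeres Btg4 ranged from 0 to 38.9 copies (median 5.36), in blastocyst cells from 41.5 to 192 (median 79.0), and in mESCs from 27.3 to 63.1 (median 48.4). Ordered by mean, the stages ran from zygote, oocyte and E2C down to 16-cell, 4-cell, L2C and 8-cell, and the ranges of neighbours in that order overlapped except between oocyte and E2C and between E2C and 16-cell.

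Btg4 UMIs were also found in all 5 mESCs, a cell type that should lack this oocyte message, at a median depth of 22726 UMIs per cell. Other oocyte messages behaved alike there. The mESC mean was 6.13% of the oocyte mean for Btg4, 3.99% for Oosp1 and 4.28% for Gdf9, both secreted oocyte proteins. In 32-cell blastomeres the same percentages were 1.06, 0.857 and 0.351, and in blastocyst cells 12, 9.81 and 3.41. In the low embryos numbered 2 Oosp1 was low too, at 19.8 copies in the 4-cell, 9.25 in the 8-cell and 8.52 in the 16-cell embryo, against 86.9 to 146 copies in the other 16-cell embryos. The whole marker list did not move as a block: Zp3 was at 2.65 to 8.60 copies in E2C and 15.9 to 42.1 in L2C embryos. Zp2 and Nlrp5 were at 0 in mESCs, but from oocyte means of only 3.69 and 8.25 copies. A few percent of those means would hardly be seen at this depth, so no comparison with Btg4 was drawn from these 0 values. Btg4 at or below its mESC level was not read as expression, and the stage means of L2C, 4-cell and 8-cell embryos lay inside the mESC range of 27.3 to 63.1 copies. The mESCs and the blastocyst cells came from different runs, and that mESC level was not checked across runs. The part of free RNA in these levels was not tested.

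**Figure D1:**
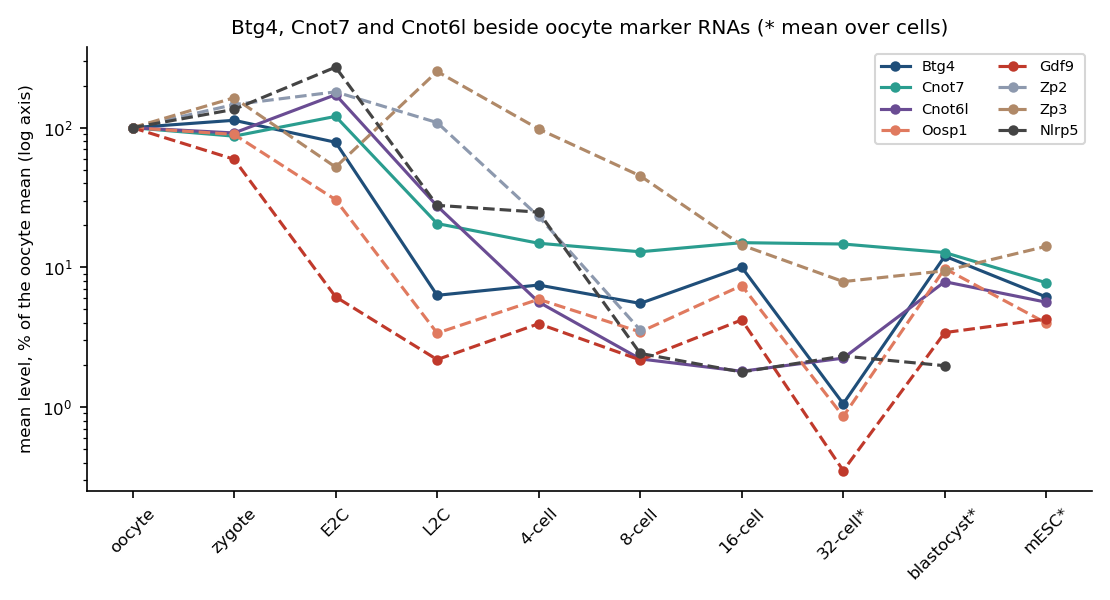
Mean level at each stage as a percentage of the oocyte mean, on a log axis, for Btg4, Cnot7 and Cnot6l (solid lines) and 5 oocyte markers (dashed lines); asterisks mark stages averaged over cells, and means of 0 are not drawn. Btg4 kept 78.6% of its oocyte level in E2C and 6.31% in L2C, whereas Gdf9 was already at 6.15% in E2C.

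The catalytic subunits split into a maternal set, Cnot7 and Cnot6l, and a set that gained at L2C, Cnot8. Cnot7 was the most abundant of them in oocytes, at 111 copies ± 30.7 (SD, n = 10), with a lowest, median and highest value of 73.8, 104 and 179. Much of that spread went with the run. Oocytes of run 3 were at 123 to 179 copies, those of run 1 at 73.8 to 110 and the 1 of run 2 at 85.4. Zygotes of run 3 were at 121 to 138 copies, those of run 1 at 65.3 to 93.3 and those of run 2 at 67.0 to 95.1. The 5 E2C embryos were at 130, 143, 122, 155 and 118 copies and the 6 L2C embryos at 11.1, 19.7, 25.3, 22.9, 26.5 and 31.4, without overlap. Cnot7 fell by 2.44 (SE 0.31, limma adjusted p = 6.9e-10) on the log2 scale, and its mean was 5.85-fold lower. It then stayed between 14.3 and 16.7 copies on average from the 4-cell to the 16-cell stage, and mESCs were at 0 to 16.0 copies.

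Cnot6l was the second catalytic message of the oocyte, at 29.8 copies ± 7.48 (n = 10), and its mean was higher in E2C than before. The 5 E2C embryos were at 44.6, 68.7, 77.2, 32.1 and 34.0 copies, against a zygote range of 11.9 to 49.98. The log2 difference of 0.90 was not called, but it was 1.11 and called without E2C embryo 4 and 1.01 and called without E2C embryo 5. The 6 L2C embryos were at 27.8, 0, 8.49, 8.13, 0.784 and 3.96 copies, and the highest of them, the embryo of 1 cell, rested on 5 UMIs. The mean was 6.26-fold lower in L2C than in E2C, a smaller fall than the fitted one. The fitted fall from E2C was 3.69 (SE 0.44, limma adjusted p = 1.0e-10), with differences of -4.16 to -2.30 over 30 settings. The fall went on afterwards, to 1.68 copies ± 1.89 (n = 5) in 4-cell and 0.538 ± 0.423 (n = 4) in 16-cell embryos, near or below the 1.68 copies that mESCs averaged.

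Cnot8, the close relative of Cnot7, moved the other way. The 5 E2C embryos were at 13.7, 14.0, 9.71, 13.4 and 19.4 copies and the 6 L2C embryos at 27.8, 47.1, 40.0, 36.5, 28.9 and 32.3, all above every E2C embryo. The rise was 1.37 (SE 0.36, limma adjusted p = 0.00079), a 2.52-fold higher mean. It was 0.91 and no longer past the fold limit with DESeq2, and 0.49 when each cell was thinned to 5000 UMIs. The level held at 37.7 copies ± 10.1 (n = 5) in 4-cell embryos and was lower again in 8-cell embryos (13.7, 21.2, 25.3 and 18.4) and 16-cell embryos (8.98, 7.80, 6.88 and 12.2). Cnot6 stayed under 10 copies in every embryo but 1 4-cell embryo, with stage means from 1.57 to 5.06. Its E2C to L2C difference of -1.13 had an unadjusted p of 0.011 in limma and was not called, but was called under the scaling by TMM factors and with DESeq2.

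Among the non-catalytic subunits, Cnot3 fell, Cnot1 rose early and Cnot2 did not pass the test at any step. Cnot3 was at 20.3, 20.5, 19.3, 18.8 and 16.2 copies in the 5 E2C embryos and at 5.56, 3.22, 2.76, 4.48, 3.29 and 2.94 in the 6 L2C embryos, without overlap. The fall was 2.22 (SE 0.34, limma adjusted p = 8.8e-08). The L2C values were made of 1 to 5 UMIs per embryo. Cnot1 was near the floor in oocytes, at 1.20 copies ± 0.483 (n = 10), and in zygotes, at 2.15 ± 1.33 (n = 9). The 5 E2C embryos were at 9.38, 7.60, 6.58, 10.96 and 5.40 copies, above every zygote. That rise of 1.59 (SE 0.30, limma adjusted p = 9.7e-05) was the only call among the 10 genes between oocyte and E2C, and it was lost with a pseudocount of 5 and in thinned cells. Cnot1 was higher again in L2C, at 17.0 ± 6.86 copies (n = 6, from 10.5 to 27.9), but the ranges overlapped and the difference of 1.02 (SE 0.41) had an unadjusted p of 0.016. Cnot2 had stage means between 4.19 and 12.4 copies, and its E2C to L2C difference was -0.18 (SE 0.33). That value ranged widely, to -0.77 with DESeq2 and -1.97 in cells thinned to 5000 UMIs, and was called in none of the settings.

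Pan2 fell as well, and Zfp36l2 stayed near the floor throughout. Pan2 was at 11.2 copies ± 3.11 in oocytes (n = 10). The 5 E2C embryos were at 11.4, 17.8, 13.6, 6.48 and 19.9 copies and the 6 L2C embryos at 11.1, 2.22, 1.58, 4.82, 2.43 and 3.22, so that the ranges overlapped through E2C embryo 4 and the L2C embryo of 1 cell. The fall of 1.81 (SE 0.38, limma adjusted p = 4.8e-05) was called, and it was not called in thinned cells. Zfp36l2 averaged between 0.419 and 2.02 copies at every stage from oocyte to 16-cell, with UMIs in 6 of 10 oocytes. It had no isoform in the isoform table, so it is reported at gene level only, and its E2C to L2C difference of 0.08 (SE 0.38) changed sign with the setting.

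**Figure D2:**
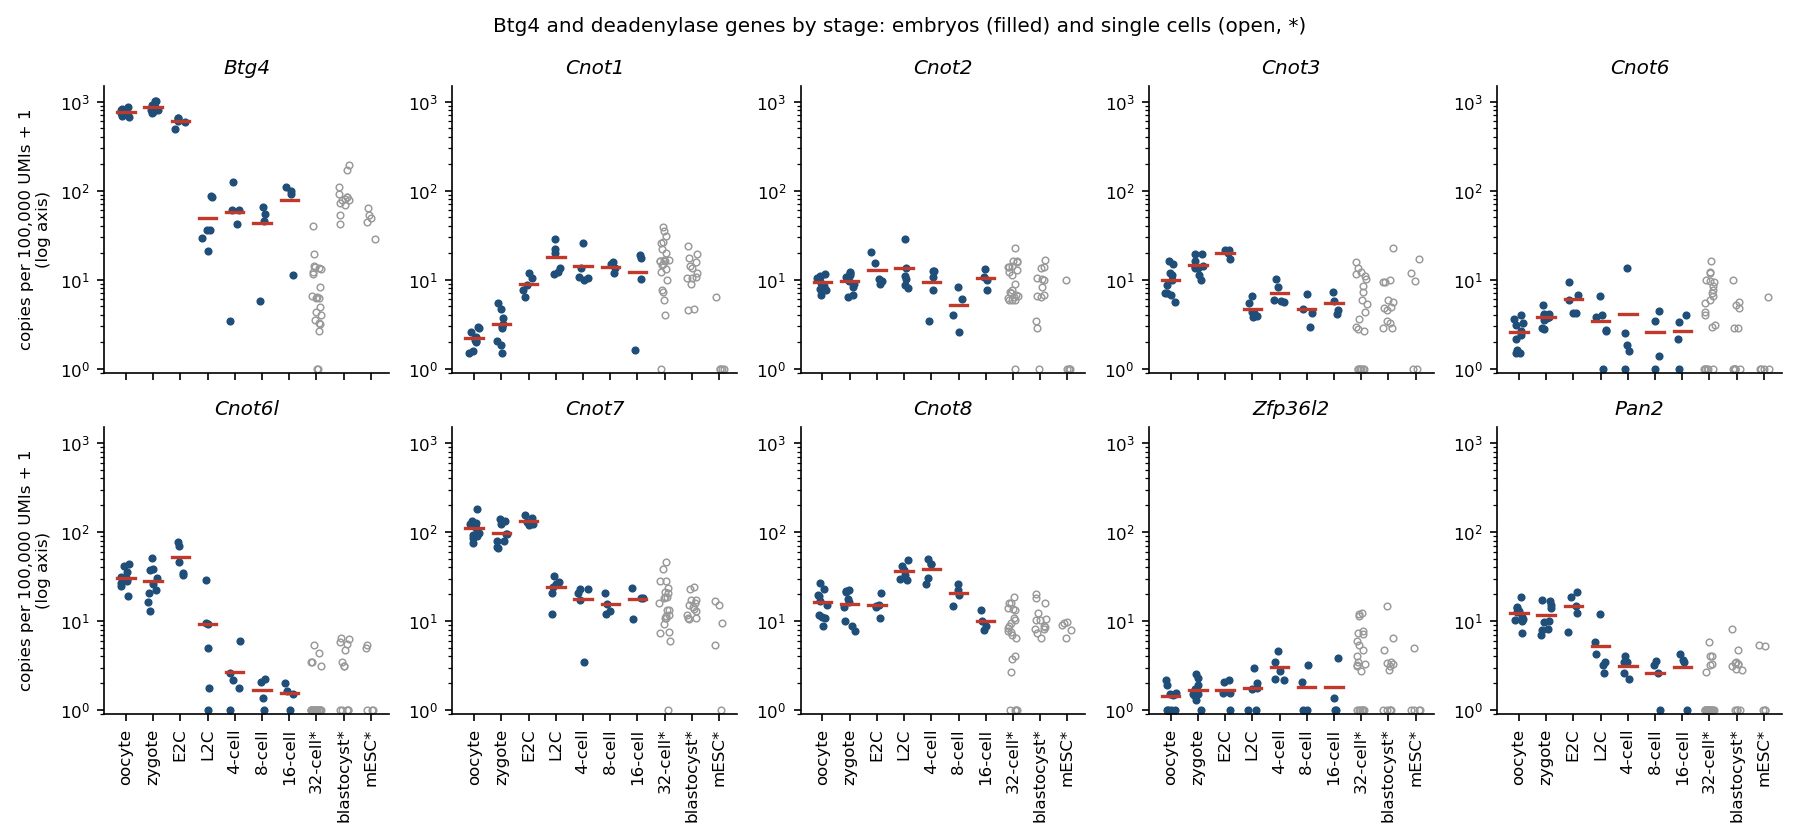
Copies per 100000 UMIs plus 1, on a log axis, for each of the 10 genes from oocyte to mESC; filled points are embryos (lines are their means) and open points are single cells of stages with no embryo name. Btg4, Cnot7, Cnot6l, Cnot3 and Pan2 drop between E2C and L2C, while Cnot8 is highest in L2C and 4-cell embryos.

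In all, 6 of the 10 genes were called between E2C and L2C, 5 lower and 1 higher, where a gene was called if limma gave it more than a 2-fold change (log2 difference beyond 1) at unadjusted p below 0.01. The background at this step was high: 48.4% of the 11682 genes tested were called, 25.6% higher and 22.8% lower. The median difference of the 10 genes was -1.47, against 0.03 over all genes. The ranges of the E2C and L2C embryos did not overlap for 5 of the 10 (Btg4, Cnot6l, Cnot7, Cnot3 and Cnot8), against 27.6% of all genes tested. Without the L2C embryo of 1 cell the count was 7, with Cnot6 added, and in cells thinned to 5000 UMIs it was 4. TMM scaling moved the median of all genes at this step from 0.03 to -0.12, and DESeq2 called 2193 genes higher and 2985 lower, against 2990 and 2664 in limma. Copies are shares of a cell's UMIs, so fewer copies of a gene and more RNA of other genes cannot be told apart, nor can fewer molecules and shorter poly(A) tails, since the cDNA was primed on the tail.

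**Figure D3:**
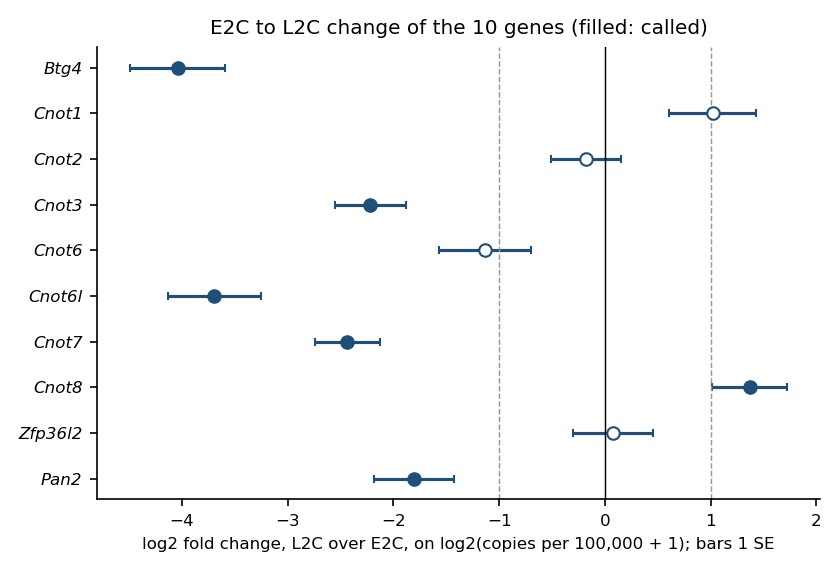
Log2 fold change from E2C to L2C on the log2(copies per 100000 + 1) scale for the 10 genes, with bars of 1 SE from limma over 5 E2C and 6 L2C embryos; filled points are called and dashed lines mark the fold limit. Btg4 at -4.04 and Cnot6l at -3.69 lie furthest to the left, and Cnot8 at 1.37 is the only filled point on the right.

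The other steps held few changes of these genes. From oocyte to zygote 0 of the 10 were called by limma, edgeR or DESeq2, where 3.24% of all genes were called by limma, and 3 of the 10 had an unadjusted p under 0.05 in limma. Within run 1 Btg4 was at 733 copies in 5 oocytes and 809 in 4 zygotes, and within run 3 at 790 in 4 oocytes and 900 in 3 zygotes. From zygote to E2C 1 of 10 was called (Cnot1, higher), where 7.27% of all genes were called and 4.52% were called higher. From L2C to 4-cell limma called 0 of the 10 (2 at an unadjusted p under 0.05, background 6.69%), whereas edgeR and DESeq2 each called Cnot6l lower. From 4-cell to 8-cell limma called 0 (3 at an unadjusted p under 0.05, background 15.0%), and edgeR and DESeq2 also called 0. From 8-cell to 16-cell limma called 0 (3 at an unadjusted p under 0.05, background 3.36%), as did edgeR and DESeq2, but Btg4 was called higher without the 16-cell embryo numbered 2, with a difference of 1.75, and in some other settings.

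Set against the oocyte, the 16-cell embryo held less of 4 of the 10 genes and more of 1. Btg4 was lower, with a log2 difference of -3.502 (limma adjusted p = 4.7e-13), as were Cnot6l with -4.17 (2.1e-16), Cnot7 with -2.66 (9.1e-15) and Pan2 with -1.88 (2.2e-07). Cnot1 was higher by 2.47 (1.9e-09), although 16-cell embryo 4 was at 0.628 copies on 1 UMI and overlapped the oocytes. Beside these 5 genes, which edgeR also called, DESeq2 called Cnot3 and Cnot8 lower. Of all genes, 50.8% were called in this comparison, which spans the clearance of maternal RNA and the onset of the embryo's own transcription.

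The balance of catalytic to scaffold messages narrowed over development. Summed per embryo, Cnot6, Cnot6l, Cnot7 and Cnot8 made up 157 copies on average in oocytes, 204 in E2C, 68.9 in L2C and 27.8 in 16-cell embryos. Cnot1, Cnot2 and Cnot3 together made up 18.5, 38.9, 33.1 and 24.9 copies at the same stages. The log2 ratio of the sums was 3.09 ± 0.47 (SD, n = 10) in oocytes, 2.52 ± 0.40 (n = 9) in zygotes and 2.40 ± 0.08 (n = 5) in E2C embryos. Oocytes of run 3 were at 3.25 to 3.89 and those of the other runs at 2.50 to 3.03. Zygotes of run 3 were at 2.81 to 3.23 and those of the other runs at 2.10 to 2.47. The run of the E2C embryos is not given, so the change of the ratio up to E2C cannot be told apart from run. The ratio was 1.10 ± 0.43 (n = 6) in L2C, 1.08 ± 0.45 (n = 5) in 4-cell, 0.80 ± 0.32 (n = 4) in 8-cell and 0.21 ± 0.68 (n = 4) in 16-cell embryos. The lowest E2C embryo, at 2.30, was above the highest L2C embryo, at 1.72. The 4 16-cell embryos were at -0.15, -0.43, 0.30 and 1.13, and the mean was -0.092 without the last of them, whose Cnot1 was at 1 UMI. Ratios are of all UMIs of a gene, whatever the isoform, and not corrected for length. The longest Cnot1 isoform was 3535 bases, against 8390 for the longest annotated coding transcript, so the level of the ratio is not a protein ratio. The makeup of both sums changed over stages, so differences in length or capture between genes do not cancel out of its fall.

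The makeup of both sums turned over between E2C and L2C. Of the catalytic copies, Cnot7 gave 65.8% ± 7.21 (SD, n = 5) in E2C and 33.6% ± 11.4 (n = 6) in L2C, and Cnot6l gave 24.8% ± 8.07 and 11.4% ± 14.1. Cnot8 went from 7.06% ± 2.45 to 51.4% ± 9.61, and its highest E2C share, 11.1%, lay below its lowest L2C share, 38.5%. By the 16-cell stage Cnot7 was again the larger, at 58.8% ± 11.5 (n = 4), against 32.7% ± 8.15 for Cnot8. Cnot7 copies here include a short isoform, described below, that gave 52.0% ± 17.9 (n = 4) of Cnot7 isoform UMIs in 16-cell embryos. Of the scaffold copies, Cnot3 gave 49.3% ± 4.09 in E2C and 11.7% ± 3.58 in L2C, and Cnot1 20.7% ± 5.85 and 52.2% ± 15.4. Cnot1 had been 6.52% ± 2.57 (n = 10) of the oocyte's scaffold copies.

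**Figure D4:**
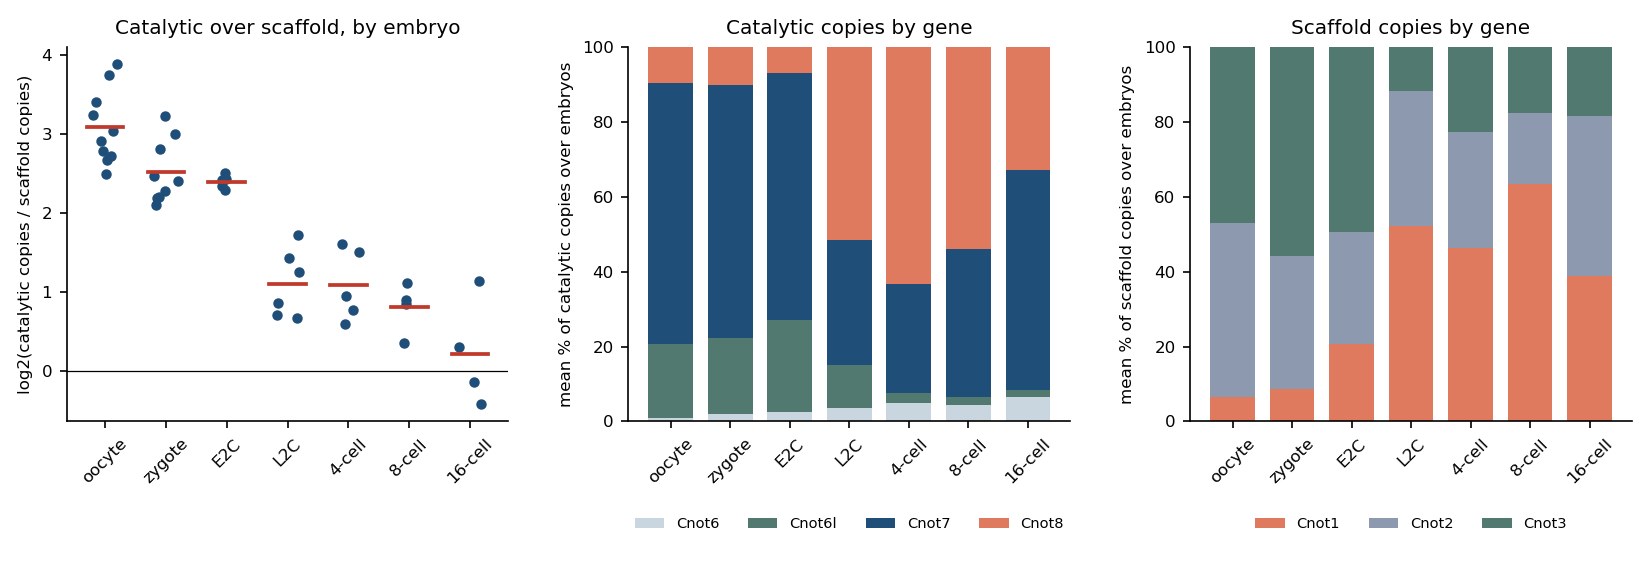
Left, log2 ratio of summed catalytic (Cnot6, Cnot6l, Cnot7, Cnot8) to scaffold (Cnot1, Cnot2, Cnot3) copies, 1 point per embryo and a line at each mean; middle and right, mean percentage of each sum given by each gene. The ratio drops from 2.40 in E2C to 1.10 in L2C while Cnot8 replaces Cnot7 as the larger catalytic share and Cnot1 replaces Cnot3 in the scaffold sum. Copies count all isoforms of a gene.

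Isoforms, in the study's isoform table, are transcript models that match an annotated splice chain in full (FSM) or in part (ISM) or join known splice sites (NIC) or new ones (NNC) in a new way, and only those seen in at least 5 cells were kept. Isoform copies are per 100000 isoform UMIs of a cell, counted before rare isoforms were removed. Those were 47.0% to 89.9% of a cell's gene UMIs, so isoform copies and gene copies are on different scales. Btg4 had 55 (12 FSM, 16 ISM, 7 NIC and 20 NNC), Cnot7 72 (25, 16, 1 and 30), Cnot2 33, Cnot1 21, Cnot8 15, Cnot6l 12, Pan2 11, Cnot3 6 and Cnot6 1. Cnot1 and Pan2 had no FSM isoform, and their longest models were 3535 and 1943 bases, against 8390 and 4445 for the longest annotated coding transcript. Between E2C and L2C 45 of 107 isoforms tested were called, 7 higher and 38 lower, where 26.0% of all 29409 isoforms were called. Over the other steps the counts were 1 from oocyte to zygote (background 1.48%), 4 from zygote to E2C (5.18%), 1 from L2C to 4-cell (4.29%), 3 from 4-cell to 8-cell (7.93%) and 3 from 8-cell to 16-cell (1.97%).

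Btg4 isoforms fell together at L2C. Of 36 tested, 23 were called lower and 0 higher by limma, the only tool run on isoforms, with a median of -1.77 over the 36. Of all 29409 isoforms, 26.0% were called at this step in either direction. The 36 belong to 1 gene whose level fell as a whole, so the count restates that fall. The leading isoform, PB.75772.45, has the splice chain of the coding transcript Btg4-201, 5 exons and 1244 bases. It was at 462, 327, 401, 373 and 387 copies in the 5 E2C embryos and at 56.6, 9.19, 9.40, 37.4, 10.9 and 16.4 in the 6 L2C embryos, and it fell by 4.58 (SE 0.53, limma adjusted p = 2.4e-10). Its share of the Btg4 isoform UMIs was 49.8% ± 3.09 (SD, n = 10) in oocytes, 50.4% ± 2.83 (n = 5) in E2C and 46.0% ± 15.6 (n = 6) in L2C. The next isoform, PB.75772.15, keeps the same splice chain, starts earlier and ends further on, at base 51120049, past the annotated end of the gene. It fell by 4.57 (SE 0.49). The isoforms that end between bases 51119602 and 51119624 gave 51.7% of Btg4 isoform UMIs in oocytes and 53.8% in E2C. The last 30 bases before that end are shown because about 1 in 2 Btg4 molecules ended there. They hold neither AATAAA nor ATTAAA, the usual poly(A) signals, and 6 of the next 20 genome bases were A.

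Btg4 main 3′ end, chr9:51119595-51119624, plus strand, GRCm38: cttgtgtttttaacaaacttctagttcagt

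Cnot8 changed its 3′ end as its level rose. Its isoforms end at either of 2 places in the last exon, a proximal end at bases 58117845 to 58117847 and a distal end at bases 58118596 to 58118597 of chromosome 11. The windows are shown to compare the ends. The capitals mark a poly(A) signal, AATAAA, which the distal window holds and the proximal window does not, and 2 of the 20 genome bases after the proximal end were A.

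Cnot8 proximal end, chr11:58117818-58117847, plus strand, GRCm38: aacaaaccagtaaaatgtctatgactctta
Cnot8 distal end, chr11:58118565-58118594, plus strand, GRCm38: ttgtaaAATAAAgattgctttttaaccatt

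The proximal end had 23.8% ± 19.6 (SD, n = 10) of Cnot8 isoform UMIs in oocytes, 14.6% ± 10.3 (n = 9) in zygotes and 5.67% ± 8.79 (n = 5) in E2C. It had 82.9% ± 14.8 (n = 6) in L2C, 68.8% ± 12.8 (n = 5) in 4-cell, 77.3% ± 4.996 (n = 4) in 8-cell and 82.2% ± 4.96 (n = 4) in 16-cell embryos. The highest E2C embryo was at 20.0% and the lowest L2C embryo at 57.7%. The stage sums behind these were 3 of 35 UMIs in E2C and 121 of 151 in L2C. The isoform table holds 35 of the 110 Cnot8 UMIs of E2C and 151 of the 216 of L2C, so the end of the other molecules is not known. In isoform copies, the proximal end went from 0.507 in E2C to 27.1 in L2C, while the distal end was at 6.72 and 5.82. The leading isoform of that end, PB.11396.6, has the splice chain of Cnot8-201 and 1527 bases. It held 1 UMI over the 5 E2C embryos and was at 16.2, 24.3, 17.4, 14.2, 14.0 and 11.9 copies in the 6 L2C embryos, a rise of 3.87 (SE 0.46, limma adjusted p = 7.3e-10).

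The leading 7-exon isoform of Cnot7 fell while a short one rose. The study had already given these Cnot7 isoforms, from the same data, as an example of an isoform switch at this step. The leading maternal isoform, PB.71257.4, has the splice chain of the coding transcript Cnot7-203, 7 exons and 2575 bases. Of Cnot7 isoform UMIs it gave 18.9% ± 7.07 (n = 10) in oocytes and 26.7% ± 7.15 (n = 5) in E2C. The sequence before its distal end is printed with the AATAAA signal in capitals. It was at 27.5 copies ± 11.9 in E2C (SD, n = 5) and 0.329 ± 0.513 in L2C (n = 6), and fell by 4.34 (SE 0.58, limma adjusted p = 1.8e-08). A short isoform, PB.71257.450, has 3 exons and 783 bases, the splice chain of the annotated processed transcript Cnot7-210, and ends at base 40507297, upstream of the last exons. It held 1 UMI over the 5 E2C embryos and was at 0, 9.55, 4.27, 9.68, 12.9 and 16.0 copies in the 6 L2C embryos, where the embryo of 1 cell was the 0, a rise of 2.97 (SE 0.47, limma adjusted p = 6.2e-07). No annotated transcript sequence at hand covered the end of this short isoform. A poly(A) signal before that end and the genome bases after it were therefore not checked.

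Cnot7 distal end, chr8:40492540-40492569, minus strand, GRCm38: taAATAAAggcttcaaaaatgttttcctat

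The isoforms that share the end of the short form had 0.672% ± 0.691 (n = 10) of Cnot7 isoform UMIs in oocytes and 0.986% ± 1 (n = 5) in E2C. They had 58.3% ± 16.1 (n = 5 with Cnot7 isoform UMIs) in L2C, 43.1% ± 15.7 (n = 4) in 4-cell, 64.9% ± 19.0 (n = 4) in 8-cell and 53.1% ± 19.9 (n = 4) in 16-cell embryos. These shares rest on 53 of 90 UMIs in L2C and 62 of 102 in 16-cell embryos. The isoform table holds 525 of the 1135 Cnot7 UMIs of E2C and 90 of the 150 of L2C, so the form of the others is not known. The 5′ ends moved as well. Those at bases 40511720 to 40511776 had 15.6% ± 4.30 in E2C and 73.7% ± 10.5 in L2C, and those at bases 40515847 to 40515875, which the 7-exon isoform uses, 50.9% ± 11.6 and 7.53% ± 7.55. The gene-level Cnot7 copies of later embryos count this short form together with the others.

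**Figure D5:**
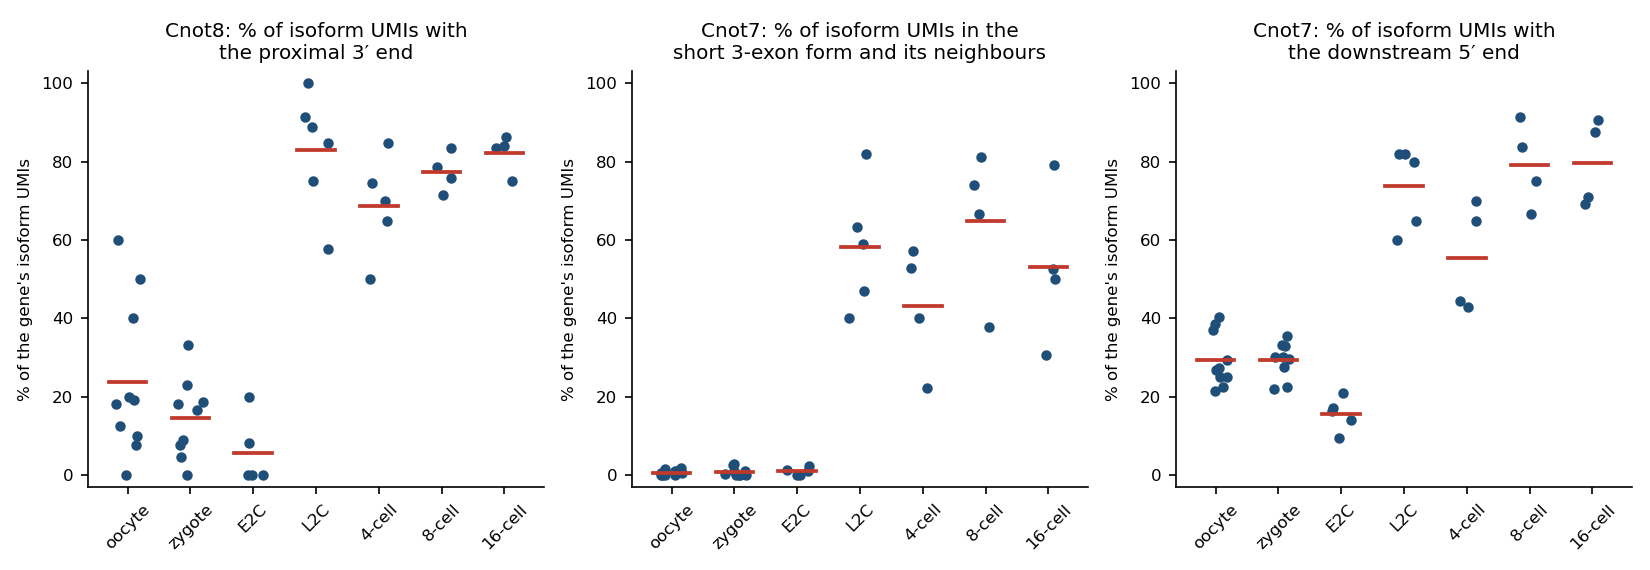
Percentage of a gene's isoform UMIs by stage, 1 point per embryo with any isoform UMI of the gene and a line at each mean, for the proximal 3′ end of Cnot8 (left), the isoforms sharing the 3′ end of the short Cnot7 form (middle) and the downstream 5′ end of Cnot7 (right). The means go from 5.67% to 82.9%, from 0.986% to 58.3% and from 15.6% to 73.7% between E2C and L2C.

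A test of isoform shares called both genes at this step: Cnot7 (gene-level adjusted p = 1.1e-08, limma on arcsine square root shares) and Cnot8 (0.0022), 2 of the 8 genes tested, where 12.1% of 4522 genes were called. For Cnot7, whose switch the study had reported from the same data, the share of PB.71257.450 rose and those of PB.71257.4, PB.71257.375 and PB.71257.162 fell. For Cnot8 the shares of PB.11396.6, PB.11396.3 and PB.11396.27, all with the proximal end, rose. Of the other steps limma called 0 genes from oocyte to zygote (background 0.763%), zygote to E2C (2.82%), 4-cell to 8-cell (2.48%) and 8-cell to 16-cell (1.47%), and no other tool was run on shares. From L2C to 4-cell it called 1, Btg4 (adjusted p = 0.0085, background 2.13%), through falls of PB.75772.390 and PB.75772.416, at a stage where Btg4 copies were near those of mESCs, and that call was lost in 9 of the 19 settings that left out an embryo.

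The isoform tables of the remaining genes were thin. For Cnot3, isoforms ending at bases 3661094 to 3661099 of chromosome 7 had 53.4% ± 30.7 (n = 5) of isoform UMIs in E2C and 12.5% ± 20.9 (n = 6) in L2C, from 63 of 126 and 2 of 19 UMIs, while the end at base 3661195 had 44.9% ± 29.6 and 87.5% ± 20.9. Another partial form, PB.64990.5, ended at base 3651317, inside the annotated retained-intron transcript Cnot3-205 and where 11 of the next 20 genome bases were A. It had 12.2% in oocytes and 15.7% in zygotes and was at 0 UMIs from E2C on. It fell by 1.29 (SE 0.34, limma adjusted p = 0.0091) from zygote to E2C, where Cnot3 as a gene differed by 0.46 and was not called. Of 446 Cnot6l UMIs in E2C, 29 were in an isoform of the table, so most were in none. Of 7 Cnot1 isoforms tested, 3 were called higher from E2C to L2C, by 1.26, 1.10 and 1.05, where 26.0% of all isoforms were called in either direction.

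The genes whose course over the 43 oocytes and embryos was most like that of Btg4, by Pearson r on log2(copies + 1) among 6091 genes with a stage mean of at least 5 copies, were Obox5 (0.987), E330034G19Rik (0.982), D6Ertd527e (0.980), Lmo1 (0.980) and Ccdc69 (0.979). Obox5, an oocyte homeobox gene, was at 279 copies in oocytes, 284 in E2C and 21.4 in L2C embryos. For Cnot6l they were Daam1 (0.957), Nlrp4f (0.954), Gm13084 (0.943), Cfap97 (0.942) and Pla2g4c (0.937). Nlrp4f was at 65.2, 82.8 and 4.84 copies at those stages. Among the 10 genes themselves, Btg4 followed Cnot7 (0.918) and ran against Cnot1 (-0.790), and Cnot6l followed Pan2 (0.861). These values describe embryos of shared stages and libraries and carry no test.

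Of 52 other genes of the pathway, 49 were tested, and 23 were called between E2C and L2C (all genes, 48.4%), 6 higher and 17 lower, with a median of -0.29. Of the 4 other CCR4-NOT subunits, Cnot10 rose from 0.302 to 7.14 copies (log2 difference 2.53), while Cnot11, its partner at the end of CNOT1, fell from 12.4 to 1.33 (log2 difference -2.58) and Cnot4, a ubiquitin ligase, from 9.004 to 0.804 (log2 difference -2.49). Of the 5 BTG and TOB relatives of Btg4, limma called 0, with 2 at an unadjusted p under 0.05. Of 6 other deadenylases, 4 were called lower, among them Pan3, the partner of Pan2, from 10.6 to 3.70 copies, and Angel1, from 2.84 to 0.529.

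Of 5 poly(A) binding proteins 2 rose and 2 fell, where 25.6% of all genes were called higher from E2C to L2C and 22.8% lower. Pabpc1, the somatic cytoplasmic form, rose from 1.69 to 38.4 copies (3.87 higher, limma adjusted p = 7.2e-12) and the nuclear Pabpn1 from 4.18 to 15.9. Pabpc1l, from 12.7 to 0.430 copies (log2 difference -3.22), after a mean of 0.613 in oocytes, and Pabpn1l, from 4.11 to 0 in every L2C embryo, both fell. Of 15 adaptors 3 rose and 3 fell. Ythdf2, a reader of methylated adenosine that recruits CCR4-NOT, rose from 4.93 to 17.7 copies, and Rc3h2 from 0 to 2.77, while Ythdf3 fell from 30.7 to 11.3 and Cpeb1, a regulator of cytoplasmic polyadenylation, from 8.88 to 1.87. Of 12 decapping and 5′ decay genes 6 fell and 0 were called higher, led by Dcp1a (41.3 to 11.8) and Lsm14a (90.2 to 24.4). Of the 2 uridylation and 3′ decay genes tested, limma called 0, with 1 at an unadjusted p under 0.05. Over the other steps, 1 of the 49 was called from oocyte to zygote (all genes, 3.24%) and 3 from zygote to E2C (7.27%). Later counts were 6 from L2C to 4-cell (6.69%), 6 from 4-cell to 8-cell (15.0%) and 2 from 8-cell to 16-cell (3.36%).

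The split oocytes show how the values held when less RNA went into the reaction at a like depth. Samples held 182596 to 281036 isoform UMIs for intact oocytes, 129744 to 289774 for 1/2 oocytes and 137231 to 275297 for 1/4 oocytes. The lower depth of later cells was not covered. Btg4 was at 721 copies ± 46.3 (SD, n = 4) in intact oocytes, 610 ± 69.9 (n = 6) in samples of 1/2 oocyte and 699.8 ± 63.5 (n = 6) in samples of 1/4 oocyte, here per 100000 UMIs of the isoform table, so the level is not compared with the other runs. Cnot7 was at 162.0 ± 14.4, 139 ± 22.3 and 142 ± 17.0 copies, and Cnot6l at 56.0 ± 9.45, 47.6 ± 13.2 and 45.4 ± 10.9. Of the 7 genes that passed the count filter, edgeR called 0 in 1/2 oocytes (background 0.506%) and 0 in 1/4 oocytes (0.542%). At an unadjusted p under 0.05 edgeR found 1 in 1/2 oocytes, Btg4 with a log2 difference of -0.21, and 0 in 1/4 oocytes, and DESeq2 found 0 in both. Cnot1 and Cnot6 were under the filter, at 0 to 11 UMIs per sample, and Zfp36l2 was in none. Pieces of an oocyte are not separate animals, so these p-values measure the spread between reactions only.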

How the data were processed

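The deposited gene and isoform values of runs 1 to 3 are, per the authors, UMIs per 100000 UMIs of a cell (a CPM scale divided by 10), over gene UMIs for genes and over isoform UMIs, rare isoforms included, for isoforms. The E2C, L2C and 4-cell columns were recorded as a score but hold the same deposited values as the others and were processed alike. Columns of E2C to 32-cell cells could not be tied to 1 sample. Values were whole multiples of 1 UMI in 100% of cases, within 0.1 UMI, so UMIs were recovered. The fourth run was deposited as UMI counts per isoform. The authors mapped reads with minimap2 to mm10, assigned genes with gffcompare, and collapsed and filtered isoforms with cDNA_Cupcake and SQANTI3. Coordinates are those of the deposited mm10 annotation.

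Cells were averaged per embryo. Genes and isoforms with at least 1 copy in at least 4 embryos were fitted with limma 3.58.1 (R 4.3.3) on log2(copies + 1), with an intensity trend and array weights, over 7 stages in 1 fit. A call needed a log2 difference over 1 and an unadjusted p under 0.01, and adjusted p-values cover all features tested. For isoform shares, the gene had to pass an adjusted p of 0.01 (Simes over its isoforms) and the isoform itself 0.05. Recovered UMIs were tested with edgeR 4.0.16 and DESeq2 1.42.0 as alternatives, and the fourth run with edgeR. P-values measure the spread between embryos, which no source used here ties to separate females. The setting without L2C embryo 1 was chosen after seeing the data. Transcript ends within 25 bases were grouped. Scripts were tested on simulated data.

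All 10 genes are named. Of each other list, the called genes that moved most from E2C to L2C are named, at most 2 in each direction. Of isoforms, the 3 most abundant per gene and those with a share change were followed, and other named ends and isoforms were chosen after their values were seen. The members and lists were chosen with earlier results of these data known. The columns carry cell names and no barcodes, so barcodes shared between libraries were not counted.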

Additional observations from a re-analysis of the deposited data

Results flagged for a closer look

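Of 70 groups of 4 to 10 embryos, 1 for each gene and stage, 7 held an embryo far from the rest, where chance gives about 1 in 20 groups. The L2C embryo of 1 cell was high for Cnot2 (27.8 copies on 5 UMIs), Cnot6l (27.8 copies on 5 UMIs) and Pan2 (11.1 copies on 2 UMIs). The 4-cell embryo numbered 2, of 2 cells, was high for Cnot1 (24.96 copies on 4 UMIs) and Cnot6 (12.5 copies on 2 UMIs) and low for Cnot7 (2.45 copies on 1 UMI). The 16-cell embryo numbered 2, of 15 cells, was high for Zfp36l2, at 2.88 copies on 18 UMIs.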

How the results depend on the processing

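Of 1892 alternative values of 82 fitted differences, 1811 kept their direction and their side of the threshold, 65 lost the call, 12 gained it and 4 changed sign: Cnot2 from E2C to L2C (0.016 without E2C replicate 2, and -0.34 to 0.016 with any embryo left out) and Zfp36l2 (-0.026 with TMM scaling, -0.24 with DESeq2 and -0.13 without E2C replicate 4, and -0.13 to 0.19 with any embryo left out). Btg4 from E2C to L2C stayed between -4.66 and -3.81 over 30 settings. The count of the 10 genes called at the 5 other steps, 1 by the design used, was 4 with no array weights, 2 with edgeR, 2 with DESeq2, 5 with gene values summed from the isoform table, 2 in cells thinned to 5000 UMIs, and 1 to 5 when an embryo was left out (5 without 8-cell replicate 1, and 2 without E2C replicate 4 or 5, 4-cell replicate 2, 8-cell replicate 3, or 16-cell replicate 2 or 4). The share of all genes called from E2C to L2C, 48.4%, was 22.7% with a pseudocount of 5, 26.7% with no filter and 16.5% in thinned cells, whose fewer UMIs leave less to call. Genes with a share change at that step numbered 4 with no array weights, against 2. Of all 4522 genes tested for shares, 760 were called with no array weights, against 549. The log2 ratio of catalytic to scaffold copies was lower as a difference of mean log2 values, which weighs each gene equally: 1.71 in oocytes, 1.38 in zygotes, 1.09 in E2C, 0.12 in L2C, -0.30 in 4-cell, -0.24 in 8-cell and -0.66 in 16-cell embryos. From the isoform table it was 1.66 in E2C. With an embryo left out it was 2.37 to 2.42 in E2C, 0.95 to 1.21 in 4-cell, 0.70 to 0.95 in 8-cell and -0.092 to 0.43 in 16-cell embryos, the lowest without 16-cell replicate 4. With an embryo left out, the 10 genes gave 6 to 8 calls from E2C to L2C and 5 from oocyte to 16-cell, and isoforms 43 to 50. Of all genes, 47.5% to 48.8% were then called from E2C to L2C. Apart from what a setting does by construction, the cause of a change was not tested. The run as a block among oocytes and zygotes left the count of calls at 0. No paired analysis was possible because no source used here says that embryos of different stages with the same number share a litter, batch or day. At the lower depth after E2C, 1 UMI in a cell is worth more copies, and Cnot3 rests on 1 to 5 and Cnot6l on 0 to 10 UMIs per L2C embryo.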
